A study of Mus musculus with 18 samples.

Results

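PTF1 is the transcription factor complex that Ptf1a forms with a class I basic helix-loop-helix (bHLH) partner, called an E protein, and with Rbpj or its paralog Rbpjl. The RNA of 10 genes of this complex and its antagonists was examined here. They were Ptf1a itself, Rbpj and Rbpjl, the 3 E protein genes Tcf3 (E2A), Tcf4 (E2-2) and Tcf12 (HEB), and the 4 inhibitor genes Id1, Id2, Id3 and Id4. The members were taken by gene symbol from a table of 23228 genes, and all 10 were found in it. The symbol Tcf3 was read as the E protein because the table lists Tcf7l1, the Wnt pathway factor that once shared this symbol, as a separate gene.

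A bHLH factor binds DNA as a dimer at the E-box, a short sequence of the form CANNTG. In PTF1 the dimer of Ptf1a and an E protein binds the E-box, and Rbpj or Rbpjl binds a neighbouring TC-box whose core reads TTCCCA. Rbpj is better known as the DNA-binding effector of Notch signalling, whereas Rbpjl does not respond to Notch and is known from the acinar pancreas, where it takes the place of Rbpj as digestive enzyme genes are switched on. Id proteins have a helix-loop-helix but no basic region, so an E protein bound to an Id cannot bind DNA. In the embryo Ptf1a is needed for pancreas formation and for inhibitory neurons in the dorsal neural tube.

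The first group was cells positive for green fluorescent protein (GFP), sorted from dissociated neural tubes of E12.5 embryos carrying the 2.3Ptf1a-GFP transgene, in which an autoregulatory Ptf1a enhancer of 2.3 kb and a beta-globin basal promoter drive GFP. The second was whole, unsorted pancreas of E15.5 embryos with no transgene named. Both are of the ICR mouse strain, and the genotype given for both is WT. The sorted group therefore holds cells in which this enhancer was active or GFP remained, while the pancreas holds all cells of the organ. The labels name 2 libraries for each tissue but the table has 1 value per gene and tissue, so no spread between replicates is known and nothing was tested.

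Values are FPKM, the fragments counted per kilobase of a transcript after division by the library's mapped total, which can be compared between genes because they are per length. The difference used throughout is log2(FPKM + 1) in neural tube minus the same in pancreas, which understates differences of genes with low values. A gene is called higher in a sample when it differs by 4 times or more on that scale and the higher sample has 5 FPKM or more, and similar when both samples have at least 5 FPKM and lie within 2 times. In whole samples, fewer cells of a type and less RNA per cell cannot be told apart.

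DNA letters that match the E-box and the TC-box can be shown for the enhancer of the transgene and for promoters of member genes. Whether the complex binds there was not tested. The enhancer of the transgene, which selected the sorted cells, lies at chr2:19351717-19354014 (mm9), 13275 bases before the annotated start of Ptf1a. In its 2298 bases there were 16 E-boxes and 3 TTCCCA boxes, both strands searched. In 2 places a TTCCCA box lay on the same strand after an E-box, at 6 to 30 bases from start to start, which is called a pair here. These stretches are shown because they combine both half-sites, and the capitals mark the E-box letters and the TTCCCA box. In the second, the E-boxes CACATG and CATGTG overlap.

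Enhancer site 1, chr2:19352464-19352521, plus strand: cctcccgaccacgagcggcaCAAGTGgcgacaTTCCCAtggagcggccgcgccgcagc
Enhancer site 2, chr2:19353698-19353757, plus strand: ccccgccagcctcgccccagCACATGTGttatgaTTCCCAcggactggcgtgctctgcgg

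The distance from start to start was 12 bases in site 1, and 14 and 12 bases in site 2. Of 77606 windows of the same length tiled over chromosome 2, 23.1% held at least 1 pair and 3.34% held 2 or more paired TTCCCA boxes. RefSeq promoter windows of 300 bases (GRCm38.p6, 250 before and 50 after the start) were found for 8 of the 10 members, some with several starts, and not for Tcf4 or Id1. Only the Rbpjl window and 1 of the 2 Rbpj windows held a pair, against 3.07% of all 32841 promoter windows. In the Rbpjl window a single TTCCCA box, written TGGGAA on the plus strand, was paired with 2 E-boxes at 11 and 22 bases. In the Rbpj window the distance was 25 bases. The spacing limits were set after these sequences were seen, so the shares of windows describe how frequent such letters are and test nothing. The stretches are shown to compare the paralogs, from -150 to -1 for Rbpjl and from -180 to -31 for Rbpj relative to the start, with the paired boxes in capitals.

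Rbpjl promoter, chr2:164403044-164403193, plus strand: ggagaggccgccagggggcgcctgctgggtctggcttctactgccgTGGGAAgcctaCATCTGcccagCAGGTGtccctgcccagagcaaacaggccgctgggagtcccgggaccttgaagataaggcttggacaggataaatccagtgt
Rbpj promoter, chr5:53590166-53590315, plus strand: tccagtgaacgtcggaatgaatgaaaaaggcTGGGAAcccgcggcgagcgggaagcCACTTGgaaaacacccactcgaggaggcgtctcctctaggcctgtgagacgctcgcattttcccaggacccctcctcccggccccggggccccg

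At least 1 E-box was in 72.3% and at least 1 TTCCCA box in 25.6% of all promoter windows, with or without the other. The Ptf1a window had 0 E-boxes, and so had those of Id3 and Id4, while Id2 had CAGCTG at -196 and Tcf3 had CACTTG at -54. Each Tcf12 window held an E-box as well. A match describes letters in a window and not bound protein, and the chromatin samples of the series are not analysed here.

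In the RNA, Rbpjl was nearly all on the pancreas side, the 3 E proteins were higher in neural tube in value, and Ptf1a and Rbpj lay within 2 times. Of the 10 members, 2 (Tcf3 and Id4) were called higher in neural tube, where 10.3% of the 10744 genes at 5 FPKM or more were. Another 1 (Rbpjl) was called higher in pancreas, against 11.9% of those genes. Similar were 3 members (Ptf1a, Rbpj and Id1), against 44.8%, and 4 (Tcf4, Tcf12, Id2 and Id3) met none of these calls, against 33.0%. The calls over all genes were 46.4% toward neural tube, but 59.6% with housekeeping centring, 66.8% with equal totals and 58.2% with totals that leave out the most abundant genes. The median difference over genes that reached 1 FPKM in both samples moved from 0.02 to 0.36, 0.57 and 0.32 with these 3 scalings. Ratios between members within a sample do not depend on that choice.

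**Figure D1:**
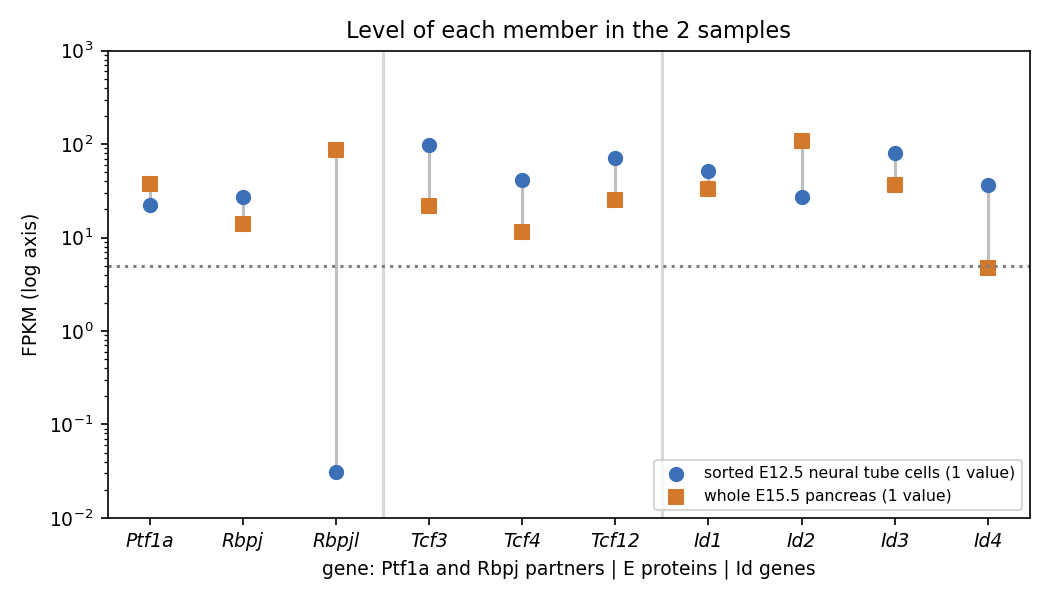
FPKM (log axis) of each of the 10 members in sorted E12.5 neural tube cells (circles) and whole E15.5 pancreas (squares), 1 deposited value each, with no error bars because no replicate values were used. The dotted line is 5 FPKM. Rbpjl spans from 0.0306 to 87.1 FPKM, and the other members lie between 4.78 and 109.

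Ptf1a (chr2:19367290-19369128, mm9 as for the genes that follow), the bHLH subunit that gives the complex its tissue restriction, was at 22.5 FPKM in the sorted cells and 37.1 in pancreas. The pancreas value was the higher, with a difference of -0.69. Among genes at 1 FPKM or more, Ptf1a stood above 71.9% in neural tube and above 83.8% in pancreas. Of the 13 alternatives of processing, only the 5 scalings and the length and GC correction could change its sign. None did, but the difference shrank to -0.09 with equal totals. Other Ptf1a-like (class II) bHLH factors draw on the same E proteins. Among 37 such genes including Ptf1a, it ranked 8 in neural tube with 5.87% of their summed FPKM, and ranked 2 in pancreas with 19.2%.

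Rbpj (chr5:53947018-54048684), the Notch effector, was at 27.1 FPKM in the sorted cells and 14.0 in pancreas. Neural tube was the higher by 0.91, within the 2 times that counts as similar. Its similar call ended with housekeeping centring (1.28), equal totals, totals without the most abundant genes and the narrower similar rule. RefSeq lists 3 pseudogenes of Rbpj that have no row in the table, and how reads were divided among such copies is not given in the sources used here, so this level is uncertain.

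Rbpjl (chr2:164228641-164240948), the acinar paralog, was at 0.0306 FPKM in the sorted cells and 87.1 in pancreas. The neural tube value was below the level of 3 fragments for its longest transcript of 2456 bases, about 0.0521 FPKM, so it corresponded to roughly 1.76 fragments. The difference was -6.42, and 99.3% of the 10744 genes had a difference that lay further toward neural tube. The call was the same under all 13 alternatives, with differences from -9.38 to -4.19 that followed the pseudocount.

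The 2 paralogs together came to 27.1 FPKM in the sorted cells and 101 in pancreas, and Rbpjl was 0.113% and 86.2% of that sum. In pancreas Rbpj was thus at 0.160 times the level of Rbpjl. Relative to Ptf1a, Rbpj was at 1.20 times its level in neural tube and 0.376 times in pancreas, and both paralogs together were at 1.20 and 2.72 times.

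The 3 E proteins, obligate partners of Ptf1a and of most other tissue-restricted bHLH factors, were each higher in neural tube in value. Tcf3 (chr10:79872259-79896392), whose gene encodes E12 and E47, was at 98.8 FPKM in the sorted cells and 21.6 in pancreas. That difference of 2.14 passed the call, and 9.31% of the 10744 genes lay further toward neural tube. Tcf12 (chr9:71692059-71959626) was at 71.7 FPKM in the sorted cells and 25.4 in pancreas, a difference of 1.46. Tcf4 was at 40.8 FPKM in the sorted cells and 11.6 in pancreas, a difference of 1.73. Neither passed the call of 4 times. Tcf4 passed it with equal totals (2.33), housekeeping centring (2.10) and totals without the most abundant genes (2.05), and Tcf12 passed it with equal totals (2.07).

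The E proteins differed in the same direction but not by the same amount in every processing. Tcf3 fell short of the call at 1.97 with a pseudocount of 5 FPKM, and at 0.86 once differences were corrected for transcript length and GC content. Its longest transcript has 61.0% GC, against 45.1% for Tcf12 and 41.1% for Tcf4. The median difference of the 3 genes was 1.73, against -0.07 over the 14303 genes that reached 1 FPKM in either sample. Tcf7l1 and Tcf7l2, which share the Tcf name but are high mobility group factors of Wnt signalling, were at 8.87 and 4.44 FPKM in neural tube and 9.14 and 10.2 in pancreas.

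The summed E protein level was 211 FPKM in the sorted cells and 58.6 in pancreas, 3.61 times higher in neural tube. Its difference of 1.83 fell to 1.32 with the length and GC correction. Tcf3 made up 46.8% of the sum in neural tube and 36.8% in pancreas, and Tcf12 33.9% and 43.4%. As deposited, the leading E protein gene was therefore Tcf3 in neural tube and Tcf12 in pancreas, with no spread known for either order. With the length and GC correction the difference of Tcf3 fell to 0.86, while that of Tcf12 was 1.54. Neither order held once that correction was split around each gene's midpoint. Per unit of Ptf1a RNA there were 9.37 units of E protein RNA in the sorted cells and 1.58 in pancreas. The pancreas ratio is over all cells of the organ, so it does not give the partner RNA within cells that express Ptf1a.

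The 4 Id genes, by contrast, summed to nearly the same level in both samples as deposited while their order changed. Id2 (chr12:25778666-25780957), which is also expressed in many stromal and blood cells, was at 27.3 FPKM in the sorted cells and 109 in pancreas. Its difference of -1.95 lay just under the call and passed it at -2.02 with upper quartile scaling. Id2 had the highest level of the 10 members in pancreas and the lowest of the Id genes in neural tube. With the correction for length and GC content the difference of Id2 was -0.74.

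Id4 (chr13:48356796-48359405), known from neural progenitors, was at 36.2 FPKM in the sorted cells and 4.78 in pancreas. Its difference of 2.69 passed the call, and 6.29% of the 10744 genes lay further toward neural tube. The call of Id4 was lost at a threshold of 8 times, the 1 alternative of 13 that ended it. Id3 (chr4:135699412-135701670) was at 80.5 FPKM in the sorted cells and 36.8 in pancreas, a difference of 1.11. Id1 (chr2:152561987-152563146) was at 51.5 FPKM in the sorted cells and 33.0 in pancreas, a difference of 0.63. Id1 and Id3 are classical targets of bone morphogenetic protein (BMP) signalling. Id1 was called similar, which ended with housekeeping centring (1.00), equal totals (1.24), the length and GC correction (1.10) and the narrower similar rule. Id3 met no call.

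Together the Id genes came to 196 FPKM in the sorted cells and 183 in pancreas, a difference of 0.09 that became 0.72 with equal totals and 0.77 with the length and GC correction. Id3 was 41.2% of the sum in neural tube and 20.1% in pancreas, Id1 26.3% and 18.0%, Id4 18.5% and 2.60%, and Id2 14.0% and 59.3%. A single gene thus held most of the Id RNA in pancreas, and no gene did in neural tube.

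**Figure D2:**
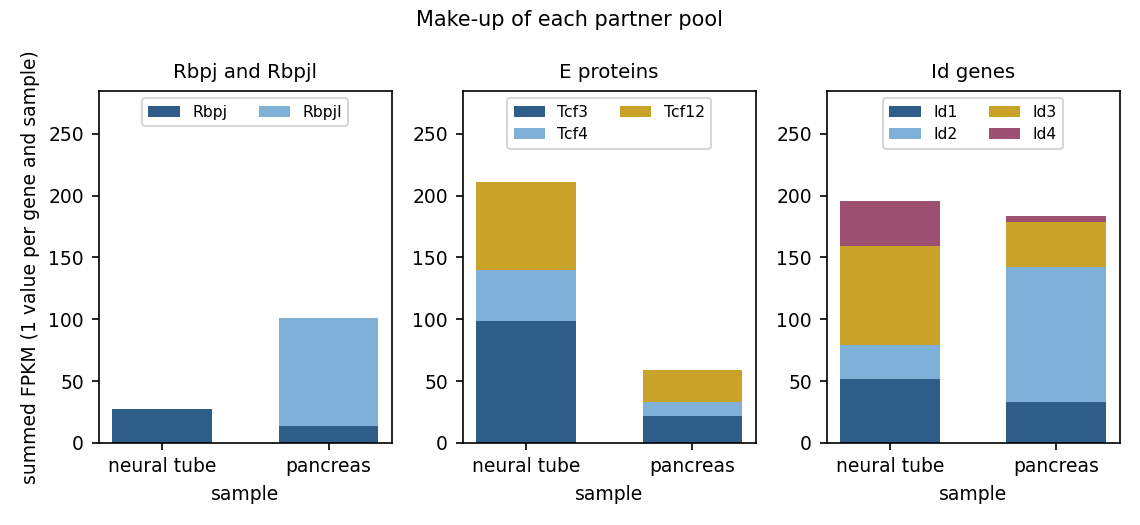
Summed FPKM of Rbpj and Rbpjl, of the 3 E proteins and of the 4 Id genes in each sample, stacked by gene, 1 deposited value per gene and sample and no error bars. The Id bars reach 196 and 183 FPKM, while the E protein bars reach 211 and 58.6.

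The ratio of summed Id to summed E protein RNA was 0.925 in the sorted cells and 3.13 in pancreas, 3.39 times higher in pancreas. Leaving out each of the 7 genes in turn gave 1.60 to 4.60 times. The lowest was without Id2, when the ratio was 0.796 in the sorted cells and 1.27 in pancreas. The highest was without Id3. With the length and GC correction of the member differences, an alternative added after the values were seen, the ratio was 1.31 in the sorted cells and 1.94 in pancreas, and the shift fell to 1.48 times. These are ratios of RNA, and neither protein nor dimers were measured. The pancreas ratio is over all cells of the organ, so it does not give the ratio within cells that express Ptf1a.

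In order of level as deposited, neural tube ran from Tcf3 through Id3, Tcf12, Id1, Tcf4, Id4, Id2, Rbpj and Ptf1a to Rbpjl. Pancreas ran from Id2 through Rbpjl, Ptf1a, Id3, Id1, Tcf12, Tcf3, Rbpj and Tcf4 to Id4. Close neighbours such as Id2 and Rbpj in neural tube, at 27.3 and 27.1 FPKM, or Ptf1a and Id3 in pancreas, at 37.1 and 36.8, cannot be ordered without replicates. The median difference of the 10 members was 1.01.

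**Figure D3:**
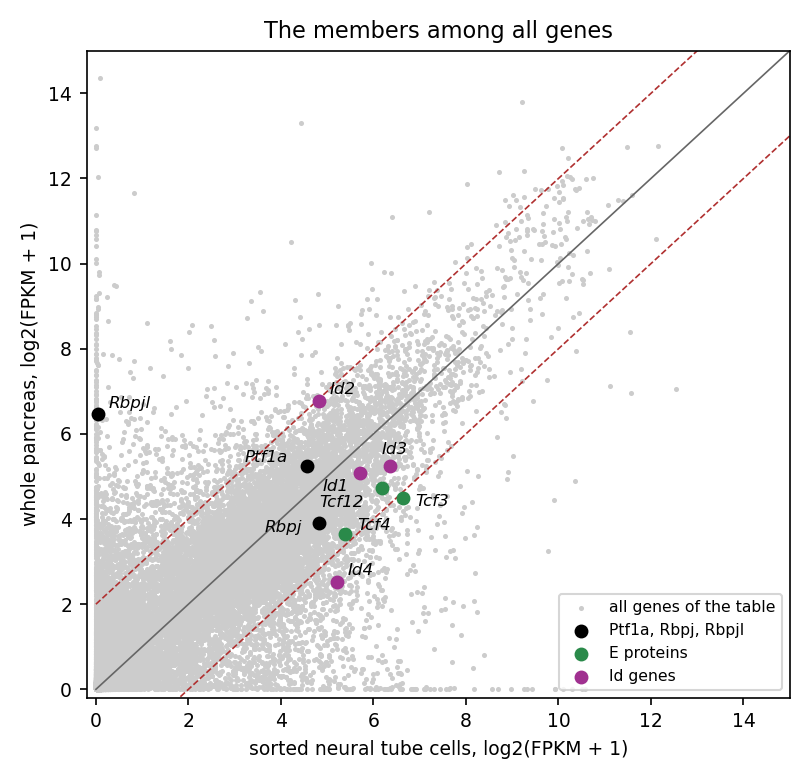
Log2(FPKM + 1) of all 23228 genes (grey) in neural tube (x) and pancreas (y), with the 10 members in colour, the line of equality and dashed lines at a difference of 2 (4 times). Rbpjl lies near 0 on the neural tube axis at the far left, Id2 lies at the upper dashed line, and Tcf3 and Id4 lie beyond the lower one.

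**Figure D4:**
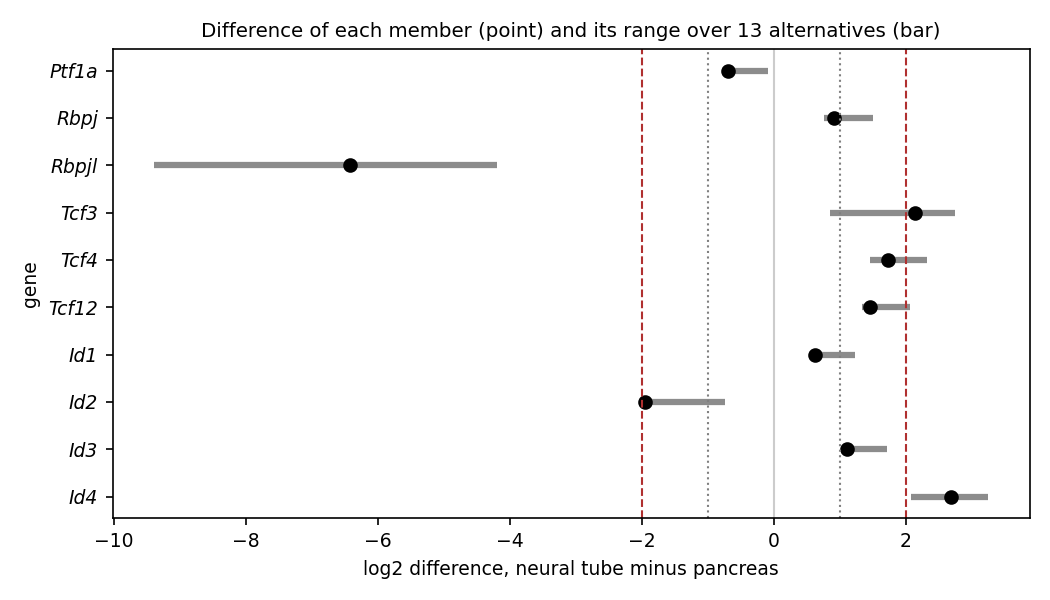
Difference of each member in log2 (point) and the range of that value over 13 alternatives of processing (grey bar), with dashed lines at 2 and -2 and dotted lines at 1 and -1. No bar crosses 0, which only the 5 scalings and the length and GC correction could have made it do. The bars of Tcf3, Tcf4, Tcf12 and Id2 cross a dashed line.

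Most marker genes of each labelled tissue were high in its own sample, and markers of other cell types differed between the samples too. All 7 inhibitory interneuron and all 7 neural progenitor markers were called higher in neural tube, with summed levels of 463 and 569 FPKM against 0.999 and 16.1 in pancreas. All 5 pan-neuronal markers found were too (1292 against 25.5). Of 6 acinar markers 5 were called higher in pancreas (29972 against 0.942), all 6 epithelial markers (835 against 6.95) and 5 of 6 endocrine markers (2697 against 15.7). In neural tube Pnlip, Ins1, Ins2, Iapp and Ppy were listed at 0, and in pancreas Lbx1 was. The acinar marker Pnlip was low in pancreas as well, at 1.03 FPKM. Stromal and blood markers moved with the samples as well. Higher in pancreas were 4 of 6 mesenchyme markers (968 against 29.4 summed FPKM), 5 of 6 endothelial (87.3 against 8.73), 4 of 6 macrophage (210 against 5.86) and 5 of 6 erythroid markers (18043 against 828), the exception being the embryonic globin Hbb-bh1, which was called higher in neural tube. None of these stromal and blood markers was listed at 0 in either sample. None of 4 Schwann and neural crest markers was called (6.22 against 8.08). The part of these cells in the levels of Id1, Id2, Id3, Tcf4 and Tcf12 was not tested.

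The other factors that compete for E proteins differed in kind between the samples. The counts that follow are out of the genes of each list that reached 5 FPKM and so could be called, to be read against 10.3%, 11.9% and 44.8% of all such genes called higher in neural tube, higher in pancreas and similar. Of 16 neural class II bHLH genes, 10 reached 5 FPKM, of which 8 were called higher in neural tube, 1 was called higher in pancreas and 1 was similar (median difference 2.72 over 15 genes at 1 FPKM or more). Nhlh2, expressed in young neurons, was at 60.1 FPKM in the sorted cells and 0.0259 in pancreas. Neurod6 was at 55.3 FPKM in the sorted cells and 0.00962 in pancreas. Neurog3, the endocrine progenitor factor, was the 1 higher in pancreas, at 35.0 FPKM against 0.341 in neural tube. Of 20 other class II genes, 5 reached 5 FPKM and all 5 were called, 3 higher in pancreas and 2 higher in the sorted cells (median -0.79 over 12 genes). Bhlha15 (Mist1), an acinar maturation factor, was at 64.9 FPKM in pancreas and 0.0611 in neural tube. Tcf21, of pancreatic mesenchyme, was at 14.5 FPKM in pancreas and 0.553 in neural tube. Tcf15 and Twist1, mesodermal factors, were at 20.5 and 15.8 FPKM in neural tube and 1.99 and 1.39 in pancreas.

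With Ptf1a, the 37 class II genes summed to 384 FPKM in neural tube, where 12 of them reached 5 FPKM, and to 193 FPKM in pancreas, where 6 did. That was 1.82 times the summed E protein level in neural tube and 3.30 times in pancreas. In value, as with the Id genes, more partner RNA stood against each unit of E protein RNA in pancreas. Bhlha15 alone gave 64.9 FPKM of the pancreas sum, and this ratio was not recomputed without it or with the length and GC correction. Whether these genes and the E proteins share cells in whole pancreas was not tested. All 10 genes listed as coregulators of E proteins and Id proteins reached 5 FPKM. Of these, 3 were called higher in neural tube, 1 in pancreas, and 3 were similar (median 1.30). The corepressors Runx1t1 and Cbfa2t3 were at 57.4 and 25.5 FPKM in neural tube and 3.80 and 3.35 in pancreas. Ldb1, an adaptor of LIM-only proteins, was at 141 FPKM in the sorted cells and 40.8 in pancreas, below the call. Its paralog Ldb2 was at 1.08 FPKM in the sorted cells and 11.4 in pancreas, and Usp1, which removes ubiquitin from Id proteins, was at 13.5 and 30.0.

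The cofactors of Rbpj were counted against the same shares of all genes at 5 FPKM or more. These were 10.3% higher in neural tube, 11.9% higher in pancreas and 44.8% similar. Of 11 activating cofactors, 9 reached 5 FPKM, of which 2 were called higher in neural tube, none was in pancreas and 3 were similar (median 0.70). They were the receptors Notch1, at 41.9 FPKM in the sorted cells and 9.59 in pancreas, and Notch3, at 29.2 and 4.52. All 15 repressing cofactors found reached 5 FPKM, of which 1 was called higher in neural tube, none was in pancreas and 8 were similar (median 0.75). It was Spen, a corepressor that competes with Notch for Rbpj, at 19.3 FPKM in the sorted cells and 2.49 in pancreas. The most abundant corepressor in neural tube, Ctbp1, was at 204 FPKM there and 51.6 in pancreas, and in pancreas it was Hdac2, at 90.6 FPKM against 114 in neural tube. Among 12 Hes, Hey and related repressors, many of them Notch targets, 5 reached 5 FPKM, of which 1 was called higher in neural tube and 1 similar (median -0.02 over 9 genes). Hes5 was at 65.2 FPKM in the sorted cells and 0.0404 in pancreas, whereas Hes1 was at 22.6 and 22.8. Hes6, which opposes Hes1, was at 99.7 FPKM in the sorted cells and 30.4 in pancreas.

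Of 20 BMP pathway genes, which act upstream of the Id genes, 9 reached 5 FPKM, of which 1 was called higher in each sample and 4 were similar (median 0.44 over 17 genes). The ligand Bmp7 was at 2.71 FPKM in the sorted cells and 35.3 in pancreas, and the receptor Bmpr2 at 20.2 and 2.82. Smad4, the shared effector, was at 35.0 FPKM in the sorted cells and 18.1 in pancreas. The inhibitory Smad6 was at 5.71 and 1.85 FPKM, and Bambi, a decoy receptor, was at 1.00 in the sorted cells and 6.70 in pancreas.

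Of 11 genes known as PTF1 targets, 10 reached 5 FPKM, of which 8 were called higher in pancreas, 0 higher in neural tube and 1 similar (median -9.12 over 10 genes). These 8 were 6 digestive enzyme genes and the acinar regulators Nr5a2 and Bhlha15. Ctrb1 and Cpa1 were at 21063 and 4213 FPKM in pancreas and 0.0688 and 0.0275 in neural tube. The targets known from neural tissue, Kirrel2 and its neighbour Nphs1, were at 47.4 and 14.0 FPKM in neural tube and 18.9 and 7.21 in pancreas. Kirrel2 met no call and Nphs1 was similar, as were 33.0% and 44.8% of all genes at 5 FPKM or more. Pnliprp1, a lipase-related gene, was listed at 0 in pancreas. The list mixes targets of both tissues, so its median describes no single tissue.

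**Figure D5:**
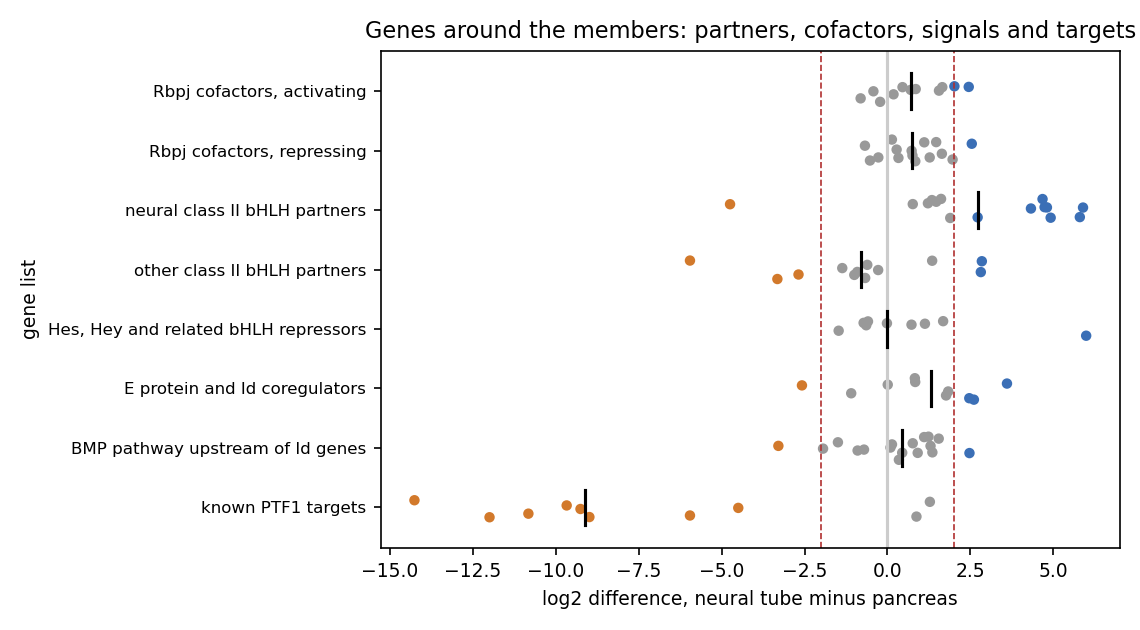
Difference in log2 (x) of each gene that reached 1 FPKM in either sample, by list (y), with blue for genes called higher in neural tube, orange for higher in pancreas and grey for no such call. Black bars are list medians, from 2.72 for neural class II bHLH genes to -9.12 for known PTF1 targets, and dashed lines mark 4 times.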

How the data were processed

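RNA from 2 samples was used, and the other 16 of 18 samples (11 immunoprecipitation, 2 input and 3 open-chromatin) are not analysed here. The authors deposited FPKM, 1 value per gene and tissue. Per the submitters' processing notes, CASAVA, TopHat, TopHat2 2.0.4 and Cuffdiff 2.0.2 were used with mm9, with no role or order stated. RNA came, per the labels' protocols, from a column kit for sorted cells and from Trizol for pancreas, and library kits were named that may differ between the tissues, so tissue, stage, sorting and preparation cannot be told apart. Members, lists and rules were chosen with earlier results of these data known. The text names all members and, per list, the gene with the highest level in each sample and the 2 largest differences in each direction among genes at 5 FPKM or more, though not all of these are printed. Kirrel2, Nphs1, Hes1, Nr5a2 and the other Tcf genes were also chosen with values known. Of the 15 housekeeping genes found, used for scaling alone, 2 were called higher in pancreas, none in neural tube and 8 were similar (median difference -0.33).

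Depth was not given. From the lowest steps of FPKM times length, 1 fragment on a 1 kb transcript was worth about 0.0427 FPKM in the sorted cells and 0.0245 in pancreas, a depth 1.74 times greater in pancreas. By that estimate members held from 323 to 8720 fragments, apart from Rbpjl in neural tube. These figures are approximate, since transcript lengths are from GENCODE M1, annotated on NCBIM37, which is mm9, which gave a length for 20072 of 23228 symbols. Computations used Python 3.11.15, pandas 2.3.3 and numpy 2.4.6. The calls and 1 of the 5 scalings, by the median ratio, were tested on simulated data with changes larger than the call threshold. The other scalings, and changes near the threshold, were not tested in that way. The 13 alternatives used other pseudocounts (0.1 and 5 FPKM), no minimum or 10 FPKM, 5 scalings, a length and GC correction in 20 bins over 3 rounds, call thresholds of 2 or 8 times and a similar call within 1.5 times. The length and GC correction of sums and ratios was chosen after seeing the data, with each member's corrected difference split evenly around its midpoint in log2(FPKM + 1). Motif spacing limits were set after the sequences were seen.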

Additional observations from a re-analysis of the deposited data

How the results depend on the processing

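Each of the 10 differences kept its sign under the 5 scalings and the length and GC correction. The other alternatives, of pseudocount, minimum and threshold, cannot change a sign. The number of members called higher in neural tube, 2, became 1 with a pseudocount of 5 FPKM and 1 with the length and GC correction. It became 3 with housekeeping centring, 3 with totals without the most abundant genes and 4 with equal totals. At a threshold of 2 times it was 5, and at 8 times 0. The counts over all genes moved too. Over all genes the number higher in neural tube, 1106, became 512 with a pseudocount of 5 FPKM. Among genes that could be corrected for length and GC it was 740. It was 1488 with housekeeping centring, 1443 with totals without the most abundant genes and 1772 with equal totals. At thresholds of 2 and 8 times it was 2494 and 546. The number of members higher in pancreas, 1, became 2 with upper quartile scaling and 2 at a threshold of 2 times. Over all genes that number, 1278, became 1334 and 2690. The number of members similar, 3, became 1 with housekeeping centring, 1 with equal totals and 0 within 1.5 times. It was 2 with totals without the most abundant genes and 4 with the length and GC correction. In the last, Tcf3 and Id2 entered and Id1 left. Over all genes the number similar, 4813, became 4575, 4225, 3217, 4640 and 5235 in the same order of settings. The difference of the summed E proteins, 1.83, became 2.45 with equal totals, and that of the summed Id genes, 0.09, became 0.72 with equal totals and 0.77 with the length and GC correction, which was added for sums and ratios after seeing the data. The ratio of Id to E protein RNA, 3.39 times higher in pancreas, was 1.60 times without Id2 and 1.48 times with that correction. For the ratio of E protein to Ptf1a RNA, 5.94 times higher in neural tube, neither leaving out a single E protein nor that correction (4.15) moved it by over 1.5 times. Causes were not tested, apart from a threshold or a member that the setting itself changes. No paired analysis was possible because each tissue has 1 deposited value. Without replicates no difference has an error, and Rbpjl in neural tube was at the limit of depth.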

Other observations

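Few genes shared the pattern of Rbpjl, and many shared those of Ptf1a and Rbpj. Over the 2 samples, by Euclidean distance on log2(FPKM + 1), 4 of 18713 other named genes lay within 0.25 of Rbpjl, against 98 for Ptf1a and 116 for Rbpj. Nearest to Rbpjl were Ang, a secreted ribonuclease, listed at 0 in the sorted cells and at 86.7 FPKM in pancreas, Wfdc15b at 0.102 and 91.1, and the protease inhibitor gene Serpinb1a at 0.0881 and 79.6. Nearest to Ptf1a were Dcaf11 at 22.4 FPKM in the sorted cells and 37.2 in pancreas, Skiv2l2 at 22.7 and 37.2, and Col18a1 at 22.4 and 37.7. Nearest to Rbpj were Sh2b1 at 26.9 FPKM in the sorted cells and 13.7 in pancreas, Rab4b at 26.5 and 14.5, and Edc4 at 26.2 and 13.5. A likeness over 2 samples says only that the levels were close. Values of 0 are only listed at 0 here, because Eif3j, a translation initiation factor gene, was itself listed at 0 in neural tube against 47.1 FPKM in pancreas.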
